A study of Homo sapiens with 6 samples.

Results

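CDK4, NUP107, SLC35E3, MDM2, CPM, CPSF6, LYZ, YEATS4, FRS2 and CCT2 are genes of the long arm of human chromosome 12. The other 9 are close neighbours, MDM2 among them, and CDK4 lies nearer the centromere. They were taken as the rows of the deposited count and FPKM tables whose Ensembl identifiers map to these symbols, which gave 10 of 22718 rows. FPKM is the count scaled to gene length and to the total of the library. Levels of different genes can be set side by side in it, but they depend on the length counted for each gene. Among the 10 this length ran from 1714 bases (YEATS4) to 19501 bases (SLC35E3). The genes were chosen by their position together with the high FPKM of several of them in these same libraries, so their levels are given as a description with no test. The word abundant held for 8 of the 10, which were at 10 FPKM or more in both arms. It did not hold for CPM, at 1.5 FPKM with panobinostat and 3.05 with vehicle, or for LYZ, at 0.252 FPKM with panobinostat and 0.829 with vehicle.

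Total RNA was sequenced from 6 libraries labelled HT1197, an established cell line named in the labels as a human bladder tumour line. In 3 libraries (A to C) the cells had spent 48 hours in panobinostat, a drug that blocks histone deacetylases (the enzymes that take acetyl groups off histones), at 2 times the half-maximal inhibitory concentration of the line. The labels mark the other 3 (A to C) as untreated, while their treatment protocol gives 1% DMSO as vehicle over the same 48 hours. This arm is called vehicle here, and which of the descriptions holds was not tested. Both arms are 1 line in culture, and the labels do not tie a library to a dish of its own, so a p-value sets the arms against the spread of these libraries, and that spread may be technical only.

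Total counts ran from 13417898 to 18186087 with panobinostat and from 14287080 to 18095984 with vehicle. The labelled cell type was checked against its markers, and the libraries went against it. Of 18 urothelial markers 11 had a row, none reached 10 FPKM with panobinostat, and GATA3 alone did with vehicle, at 10.6 FPKM. UPK1B, FOXA1 and TP63 had no count in any vehicle library. The markers with a row summed to 11.7 to 15.5 FPKM per panobinostat library and 11.0 to 15.3 FPKM per vehicle library. Markers of adrenergic neuroblasts, listed with earlier results known, summed to 1466 to 1555 FPKM with panobinostat and 1793 to 2055 FPKM with vehicle. Among them MYCN, a transcription factor of the MYC family, averaged 579 ± 22.5 FPKM with panobinostat and 832 ± 67.3 FPKM with vehicle (SD, n = 3 each), a large part of each sum. Of the 11 markers of that list 8 reached 10 FPKM with panobinostat and 10 with vehicle. TH, also listed, was at only 0.0683 FPKM with panobinostat and 0.0875 with vehicle. The libraries are therefore called by their label, and the cells they came from are given no other name.

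The stretch from CDK4 to CCT2 is known in cancer biology because tumours of several kinds carry extra copies of it, and CDK4 and MDM2 are its best-known genes. CDK4 is a kinase that joins with D-type cyclins and phosphorylates the retinoblastoma protein, which lets cells enter S phase. MDM2 is a ubiquitin ligase that marks other proteins for degradation. The other genes there have unrelated tasks in the nuclear pore, messenger RNA cleavage, protein folding, chromatin and growth factor signalling. DNA copy number was not measured in these libraries, and its part in any level below was not tested.

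Stretches before the start sites of CDK4 and SLC35E3 are shown because they hold the E-box CACGTG, which proteins of the MYC family can bind, and MYCN was high in these libraries. They come from RefSeq (GRCh38.p14), whose promoter table held 9 of the 10 genes and all but LYZ. The RefSeq starts of CDK4 and SLC35E3 differ from the GENCODE gene bounds given below, and the stretches shown lie inside those bounds. Both strands of the 250 bases before each start were searched, and the motif was chosen after sequences had been looked at. CDK4 held 3 copies of CACGTG, whose first bases lay 216, 196 and 101 bases before its start, and SLC35E3 held 1 copy at 47 bases. CACGTG was held by 2228 of 35116 promoters there (6.34%). The other member promoters held no copy in this window. A match is a description of letters only. Capitals mark the motif, and each stretch is written 5′ to 3′ on the strand of its gene.
CDK4, first pair of E-boxes, chr12:57752499-57752528, minus strand: gtCACGTGtgatagcaacagatCACGTGgc
CDK4, E-box nearest the start, chr12:57752394-57752423, minus strand: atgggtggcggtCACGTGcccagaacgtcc
SLC35E3, E-box, chr12:68746117-68746146, plus strand: ggagccccgagtCACGTGgctgcgggcgga

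The 10 genes differed widely in level. CCT2, a subunit of the chaperonin that folds actin and tubulin, was the highest in both arms, and LYZ, the secreted lysozyme of myeloid cells and glands, was the lowest. In FPKM the order was CCT2, CDK4, YEATS4, CPSF6, NUP107, MDM2, FRS2, SLC35E3, CPM and LYZ with panobinostat and with vehicle alike. No pair of neighbours in that order overlapped between libraries of an arm. The closest steps were YEATS4 over CPSF6, by 1.41-fold with panobinostat, and CPSF6 over NUP107, by 1.28-fold with vehicle. The widest step was SLC35E3 over CPM, by 19.1-fold with panobinostat and 6.69-fold with vehicle.

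Among all 22718 rows CCT2 ranked 9 with panobinostat and 10 with vehicle, and CDK4 ranked 24 in both arms. CCT2, CDK4, YEATS4, CPSF6, NUP107 and MDM2 were at 100 FPKM or more in both arms, a level that 1.52% of all rows reached with panobinostat and 1.58% with vehicle. The median over all rows was 1.86 FPKM with panobinostat and 1.40 FPKM with vehicle. Together the 10 genes held 1.63% of all counts with panobinostat and 1.79% with vehicle. On chromosome 12, with 788 protein-coding rows, CCT2 was the highest gene in both arms. CDK4 ranked 2 there with panobinostat and 3 with vehicle, and YEATS4 ranked 5 in both.

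**Figure D1:**
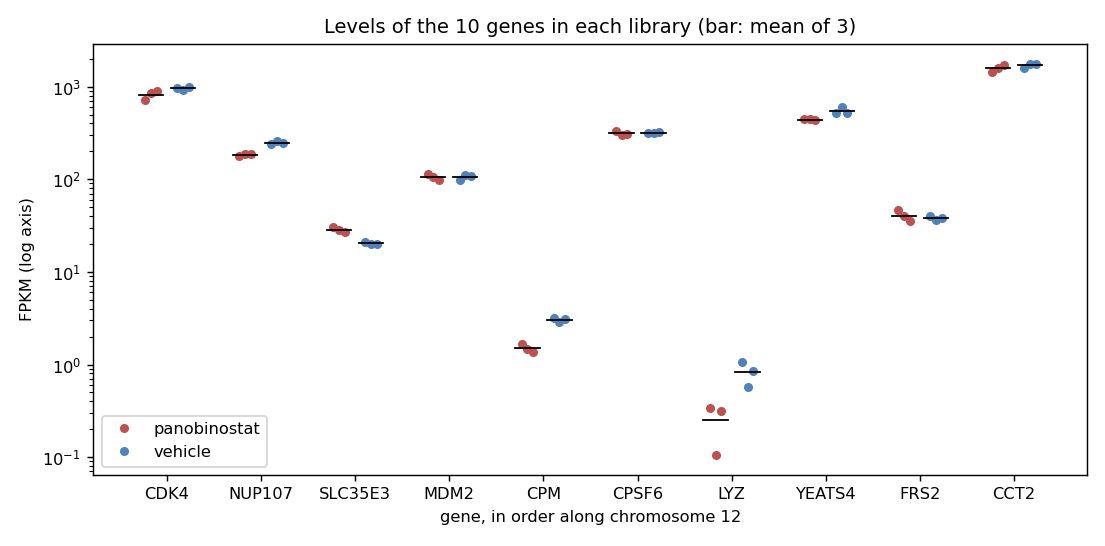
Deposited FPKM (log axis) of the 10 genes in order along chromosome 12, with panobinostat in red on the left and vehicle in blue on the right of each gene. Each point is a library and each bar the mean of 3. CCT2 and CDK4 lie highest, CPM and LYZ lie far below the rest, and the order is the same in both arms.

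High rows were packed closely but not evenly. Around CDK4 many rows that are not members were also high. From NUP107 to CCT2 the high rows were themselves taken as members, so those left to count were mostly low or nearly silent. The 2 places therefore cannot be compared by their other rows. In windows of 20 protein-coding rows, members included, 4 around CDK4 and 6 around MDM2 reached 100 FPKM in the vehicle mean. The table's 30 rows nearest CDK4, 15 on each side, span positions 57516588 to 57959148 (GRCh38, GENCODE 29). Of these 14 reached 10 FPKM and 4 reached 100 FPKM in the vehicle mean. TSFM, a mitochondrial translation elongation factor, was at 136 ± 10.0 FPKM with panobinostat and 177 ± 5.83 with vehicle (SD, n = 3 each). CTDSP2, a phosphatase, was at 131 ± 1.96 FPKM with panobinostat and 120.4 ± 6.49 with vehicle. ATP23, a mitochondrial protease, was at 158 ± 3.75 FPKM with panobinostat and 147 ± 7.47 with vehicle. The long noncoding row AC084033.3 completed the 4, and CDK4 stood above each of them in every library.

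The other protein-coding rows near CDK4 at 10 FPKM or more with vehicle were DDIT3, DCTN2, DTX3, OS9, TSPAN31, MARCH9, METTL1 and EEF1AKMT3. The nearest row under that line before CDK4 was AGAP2, a GTPase-activating protein, at 39.3 ± 1.14 FPKM with panobinostat and 6.19 ± 0.547 with vehicle. The nearest after it was CYP27B1, the enzyme that activates vitamin D, at 2.66 ± 0.143 FPKM with panobinostat and 4.43 ± 0.433 with vehicle.

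In the stretch from NUP107 to CCT2 the table held no protein-coding row besides the 9 members. Its 9 other rows, from position 68705634 to 69460724, were pseudogenes and noncoding RNAs, and none reached 10 FPKM. LYZ and CPM sat among high neighbours: LYZ, the lowest gene, is the next protein-coding row to YEATS4, which averaged 442 ± 5.78 FPKM with panobinostat and 545 ± 43.8 with vehicle (SD, n = 3 each). Of the 39 rows in and around it that are not members, 21 were under 1 FPKM with vehicle. CNOT2, a subunit of the CCR4-NOT deadenylase, was the 1 row among them at 100 FPKM or more in the vehicle mean, with 89.5 ± 3.64 FPKM with panobinostat and 110.0 ± 2.26 with vehicle. CAND1, DYRK2 and RAP1B were the other protein-coding rows at 10 FPKM or more in the vehicle mean, between 10.6 and 37.8 FPKM with panobinostat and 10.1 and 38.7 FPKM with vehicle. RAB3IP, the first row past CCT2, was at 10.4 ± 1.86 FPKM with panobinostat and 2.22 ± 0.153 with vehicle, and AC090061.1, the first before NUP107, was at 4.97 ± 0.495 FPKM with panobinostat and 2.76 ± 0.431 with vehicle.

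**Figure D2:**
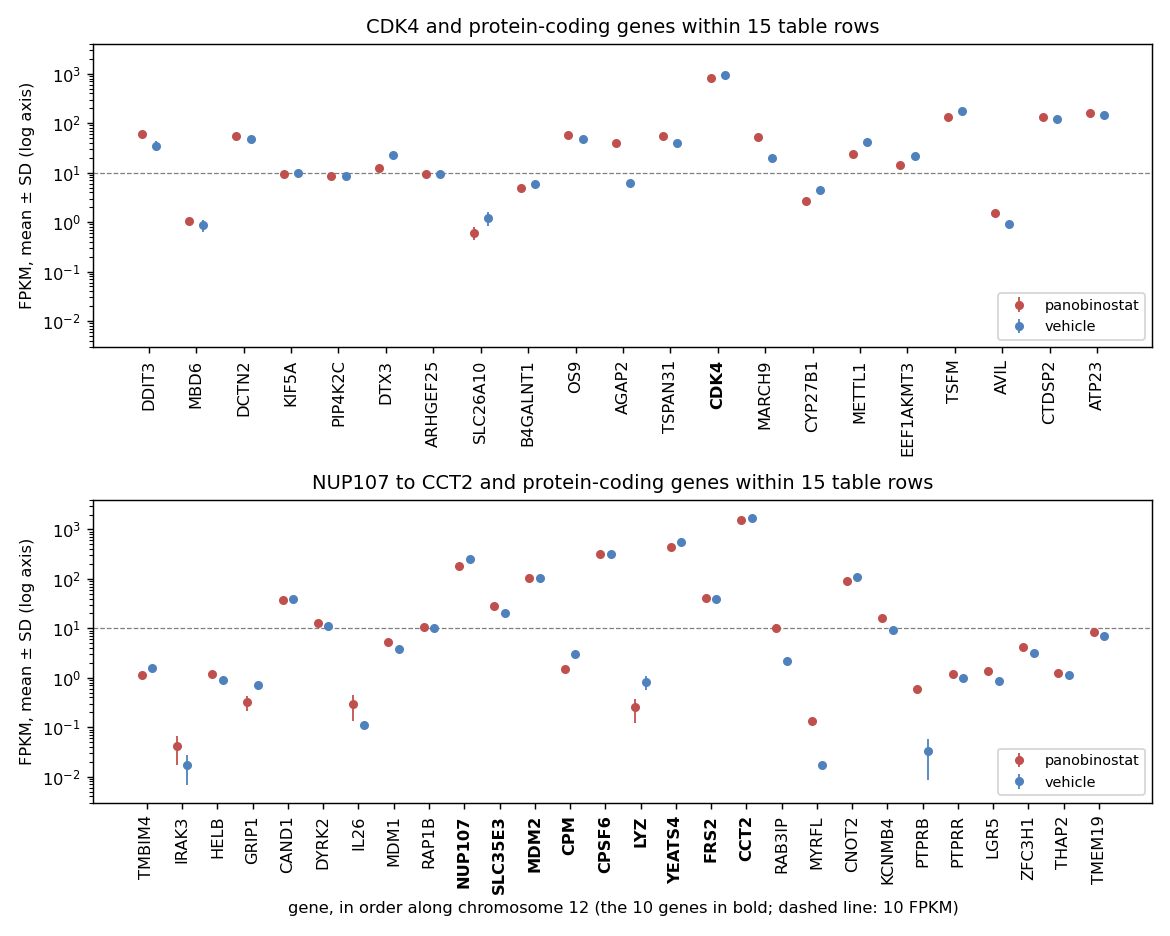
Mean FPKM ± SD (log axis, n = 3) of protein-coding genes in order along chromosome 12 around CDK4 (top) and around the other 9 genes (bottom), with panobinostat in red and vehicle in blue and the 10 genes in bold. The dashed line is 10 FPKM, and in the lower panel 7 of the 9 bold genes stand above it.

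With panobinostat 7 of the 10 genes changed: SLC35E3 rose, and CDK4, NUP107, CPM, LYZ, YEATS4 and CCT2 fell (edgeR quasi-likelihood test, Benjamini-Hochberg adjusted p of 0.05 or less). MDM2, CPSF6 and FRS2 did not pass. Of the 16084 genes tested 65.2% passed, 33.7% higher and 31.5% lower, so 7 of 10 is near the background and is no result about these genes as a group. The median log2 fold change was -0.29 over the 10 genes and 0.01 over all genes tested. CPM and LYZ, the low pair, were the 2 genes that changed at least 2-fold, a size that 22.2% of all tested genes reached. The other changes lay between a log2 fold change of -0.55 and 0.38. Markers of fibroblasts (6 with a row of 6 listed, LUM the highest with panobinostat) summed to 52.7 to 55.3 FPKM per panobinostat library and 5.44 to 6.53 FPKM per vehicle library. Most of the panobinostat sum was LUM, at 42.4 FPKM against 0.654 with vehicle, and no other fibroblast marker reached 10 FPKM in either arm. COL1A2 was at 0.0188 FPKM with panobinostat and 0.0125 with vehicle. Endothelial markers (3 with a row of 4 listed) summed to 0.554 to 0.564 FPKM with panobinostat and 0.105 to 0.154 FPKM with vehicle. The part of either in the changes of the 10 genes was not tested. Changes are relative to the other genes of a library, and fewer cells of a kind and less RNA per cell cannot be told apart in bulk RNA.

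The size of the small changes depended on how libraries were scaled. TMM scaling, used for the values given, was set beside library size alone and upper quartile scaling, which moved the median of all genes up by 0.11 and 0.14 on the log2 scale. FPKM as deposited is scaled by library size alone, so for each of the 10 genes the ratio of the FPKM means lies higher than the tested fold. Fold changes are panobinostat over vehicle, with the standard error from the fit.

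**Figure D3:**
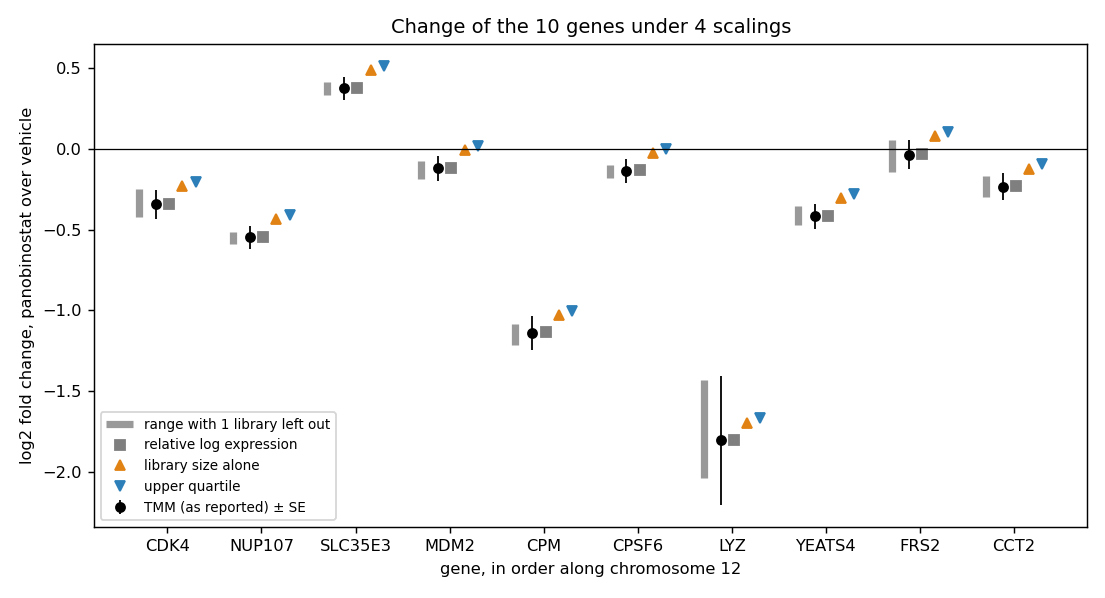
Log2 fold change, panobinostat over vehicle, of the 10 genes in order along chromosome 12. Black points are the tested values (TMM) with their SE, other symbols are 3 other scalings, and grey bars give the range with 1 library left out; FRS2, MDM2 and CPSF6 cross 0, SLC35E3 stays above it, and the other 6 genes stay below it in what is drawn.

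CDK4 (ENSG00000135446, chromosome 12, 57747727 to 57756013, minus strand) fell modestly, and its inhibitors and partners moved in both directions. CDK4 was at 709.7, 844 and 896 FPKM in panobinostat libraries A, B and C, against 968, 921 and 990.1 FPKM in vehicle libraries A, B and C. The arms did not overlap, and panobinostat A was the lowest. The log2 fold change was -0.34 ± 0.09 (edgeR quasi-likelihood test, adjusted p = 0.00352). It was -0.20 with upper quartile scaling (adjusted p = 0.0531), which ends the call. A pseudogene of it, CDK4P1, exists in the annotation, and reads could be split between them. TSPAN31 and MARCH9 overlap the annotated ends of CDK4 on the other strand, and the counts were made by strand.

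The CDK4 list held 21 genes, CDK4 included (kinases, cyclins, inhibitors, RB proteins and E2F transcription factors). Of these 8 rose, 9 fell and 4 did not pass. The median log2 fold change was -0.15, against 0.01 over all genes tested. For each list below the median is given likewise, with its member or members included. The background for the counts of each list is 33.7% higher and 31.5% lower over all genes tested. CDK4 was the highest of them in both arms, 4.53-fold above the next gene, CCND1 (cyclin D1), with panobinostat and 5.16-fold with vehicle. CCND1 was at 180.4 FPKM with panobinostat and 186 FPKM with vehicle and did not pass the test (log2 fold change -0.15, adjusted p = 0.0699). CDK6, the close relative of CDK4, fell to 18.8 FPKM with panobinostat, against 39.7 FPKM with vehicle (log2 fold change -1.19). On the log2 scale E2F1 fell by 0.64, E2F2 by 0.76 and E2F3 by 0.27. CCNE1 and CCNE2, the E-type cyclins, fell by 0.42 and 0.65.

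The inhibitors of cyclin-dependent kinases moved in both directions. CDKN2B (p15) rose by 1.89 ± 0.20 on the log2 scale to 1.85 ± 0.357 FPKM with panobinostat, against 0.460 ± 0.0675 with vehicle. CDKN2D (p19) rose by 1.498 ± 0.15 to 13.6 ± 1.18 FPKM with panobinostat, against 4.41 ± 1.04 with vehicle. CDKN1C (p57) rose by 1.29 ± 0.35 but stayed under 1 FPKM in both arms. CDKN2A, whose locus encodes p16 and ARF, fell by 0.90 ± 0.10 on the log2 scale to 7.54 ± 0.194 FPKM with panobinostat, against 13.1 ± 2.04 with vehicle. CDKN1B (p27), the highest of these inhibitors with vehicle, fell by 1.00 to 20.3 FPKM with panobinostat, against 37.8 FPKM with vehicle. CDKN2C (p18) rose by 1.05 to 6.16 FPKM with panobinostat, against 2.74 FPKM with vehicle. CCND2 (cyclin D2) had 537 counts over the 3 panobinostat libraries and 2 counts over the 3 vehicle libraries, too few for a fold change. CDKN1A (p21) rose by 0.32 to 27.4 FPKM with panobinostat, against 20.4 with vehicle. RB1 itself rose to 23.2 FPKM with panobinostat, against 17.2 FPKM with vehicle (log2 fold change 0.32).

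MDM2 (ENSG00000135679, 68808176 to 68850686, plus strand) did not pass the test. It was at 114, 106 and 99.0 FPKM in panobinostat libraries A, B and C, against 99.2, 112 and 109 FPKM in vehicle libraries A, B and C. In FPKM the arms overlapped, with the highest and the lowest library both in the panobinostat arm. In TMM-scaled counts, the scale of the test, they overlapped too, with vehicle B the highest and panobinostat C the lowest. The log2 fold change was -0.12 ± 0.08 (edgeR, adjusted p = 0.195), but 0.02 with upper quartile scaling and -0.18 without vehicle A, where the adjusted p was 0.0392. Its 3′ end overlaps that of CPM, which lies on the other strand, and the counts were made by strand.

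The regulators of MDM2 moved in both directions. Of the 15 reported genes of this list with a row, MDM2 included, 5 rose, 7 fell and 3 did not pass (median -0.12). USP7, the deubiquitinase that stabilises MDM2, fell by 0.90 ± 0.09 to 16.3 ± 2.10 FPKM with panobinostat, against 28.1 ± 1.15 with vehicle. MDM4, the partner of MDM2, was at 6.58 FPKM with panobinostat and 6.62 with vehicle and did not pass (log2 fold change -0.12). Of the 5 genes that rose 4 encode ribosomal proteins that can bind MDM2, RPL5, RPL11, RPL23 and RPS7. The other was USP2, a deubiquitinase with 89 counts over the panobinostat libraries and 17 over the vehicle libraries. RPL11 rose by 0.84 ± 0.10 to 1071 ± 30.8 FPKM with panobinostat, against 554 ± 74.9 with vehicle. In FPKM it was the highest of the list in both arms. Genes of ribosomal proteins have many processed copies, so these levels are uncertain.

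NUP107 (ENSG00000111581, 68686734 to 68745809, plus strand), a scaffold subunit of the Y complex of the nuclear pore, fell with most of its complex. It was at 177, 188 and 187 FPKM in panobinostat libraries A, B and C, against 240.3, 258 and 248 FPKM in vehicle libraries A, B and C. The arms did not overlap. The fitted log2 fold change was -0.55 ± 0.07 (edgeR, adjusted p = 1.06e-05). Of the 10 Y complex genes, NUP107 included, 9 fell, 0 rose and 1 (NUP37) did not pass (median -0.37), and 5 fell under scaling by library size alone and under upper quartile scaling. NUP85 fell by 0.78 ± 0.07 to 15.1 ± 0.495 FPKM with panobinostat, against 23.9 ± 0.511 with vehicle. NUP160 fell by 0.71 ± 0.08, SEH1L by 0.56 ± 0.08 and SEC13 by 0.46 ± 0.07 on the log2 scale.

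In level NUP107 was above the rest of its complex in both arms. Its 9 partners ranged from 4.22 to 28.7 FPKM with panobinostat and from 5.75 to 41.3 FPKM with vehicle. NUP107 was 12.2-fold above their median with panobinostat and 10.4-fold with vehicle. SEH1L was the lowest of the complex in FPKM in both arms.

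CPSF6 (ENSG00000111605, 69239537 to 69274358, plus strand), the CFIm subunit that with NUDT21 helps choose where messenger RNAs are cleaved, did not pass the test. It was at 334, 298 and 306 FPKM in panobinostat libraries A, B and C, against 315, 319 and 321 FPKM in vehicle libraries A, B and C. The FPKM arms overlapped, with panobinostat A the highest of the 6. In TMM-scaled counts, the scale of the test, the arms did not overlap, and each panobinostat library lay below each vehicle library. Its log2 fold change was -0.14 ± 0.07 (edgeR, adjusted p = 0.114). It was 0.003 with upper quartile scaling and -0.18 without panobinostat A, where the adjusted p was 0.0313.

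The other cleavage factors mostly fell. Of the 17 genes of the list, CPSF6 included, 14 fell, 0 rose and 3 did not pass (median -0.46), but 11 fell and 1 rose under library size alone and under upper quartile scaling. NUDT21, the partner of CPSF6, fell by 0.53 on the log2 scale to 118 FPKM with panobinostat, against 157 FPKM with vehicle, and was the next highest of the list. CPSF7, the paralogue that can take the place of CPSF6, fell by 1.04 ± 0.09 to 8.15 ± 0.742 FPKM with panobinostat, against 15.5 ± 1.74 with vehicle. CPSF1 fell by 0.79 ± 0.10, CSTF2 by 0.77 ± 0.09 and PABPN1 by 0.71 ± 0.09 on the log2 scale. In FPKM CPSF6 was 26.5-fold above the median of its 16 partners with panobinostat and 20.5-fold with vehicle.

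CCT2 (ENSG00000166226, 69585334 to 69601570, plus strand) showed a small fall that several choices undid. It was at 1439, 1583 and 1697 FPKM in panobinostat libraries A, B and C, against 1592, 1767 and 1775 FPKM in vehicle libraries A, B and C. The arms overlapped. In log2 the change was -0.23 ± 0.09 (edgeR, adjusted p = 0.0264). Leaving out panobinostat A or B, or vehicle B or C, ended the call, with log2 fold changes of -0.17, -0.23, -0.21 and -0.21 and adjusted p of 0.0731, 0.0701, 0.0728 and 0.0891. With library size alone it was -0.12 (adjusted p = 0.196), and with upper quartile scaling -0.09 (adjusted p = 0.335).

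Of the 8 subunits of the chaperonin, CCT2 included, 6 fell, 0 rose and 2 did not pass (median -0.27). Under library size alone and under upper quartile scaling 4 fell, and 4 to 6 fell with 1 library left out. CCT3 fell by 0.50 ± 0.09 on the log2 scale to 332 ± 34.4 FPKM with panobinostat, against 436 ± 29.5 with vehicle. CCT5 fell by 0.49 ± 0.08, CCT7 by 0.36 ± 0.08 and CCT6A by 0.31 ± 0.07. TCP1 and CCT4 did not pass, with log2 fold changes of -0.06 and 0.01. In level CCT2 was 4.73-fold above the next gene, CCT3, with panobinostat and 3.93-fold with vehicle. The other 7 subunits lay between 103.9 and 332 FPKM with panobinostat and between 100.4 and 436 FPKM with vehicle.

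YEATS4 (ENSG00000127337, 69359703 to 69390796, plus strand), the GAS41 reader of acetylated histones in the TIP60 and SRCAP chromatin complexes, fell. It was at 446, 443 and 435 FPKM in panobinostat libraries A, B and C, against 517, 596 and 523 FPKM in vehicle libraries A, B and C. The arms did not overlap. On the log2 scale it differed by -0.42 ± 0.08 (edgeR, adjusted p = 0.000226).

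Of the 21 genes of these complexes, YEATS4 included, 12 fell, 2 rose and 7 did not pass (median -0.30). Under library size alone and under upper quartile scaling 10 fell and 3 rose. RUVBL1, an ATPase, and MORF4L2 rose by 0.26 and 0.22 on the log2 scale, and 1 gene rose without panobinostat C or without vehicle C. MORF4L1, the paralogue of MORF4L2, fell by 1.37 ± 0.08 to 8.56 ± 0.937 FPKM with panobinostat, against 20.5 ± 0.283 with vehicle. EPC2 fell by 1.06 ± 0.09, EPC1 by 0.92 ± 0.08 and VPS72 by 0.85 ± 0.07. KAT5 (TIP60), the acetyltransferase, fell by 0.69. YEATS4 was 44.0-fold above the median of its 20 partners with panobinostat and 38.8-fold with vehicle, and the next gene, MORF4L2, was at 151 FPKM with panobinostat and 120.0 with vehicle.

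**Figure D4:**
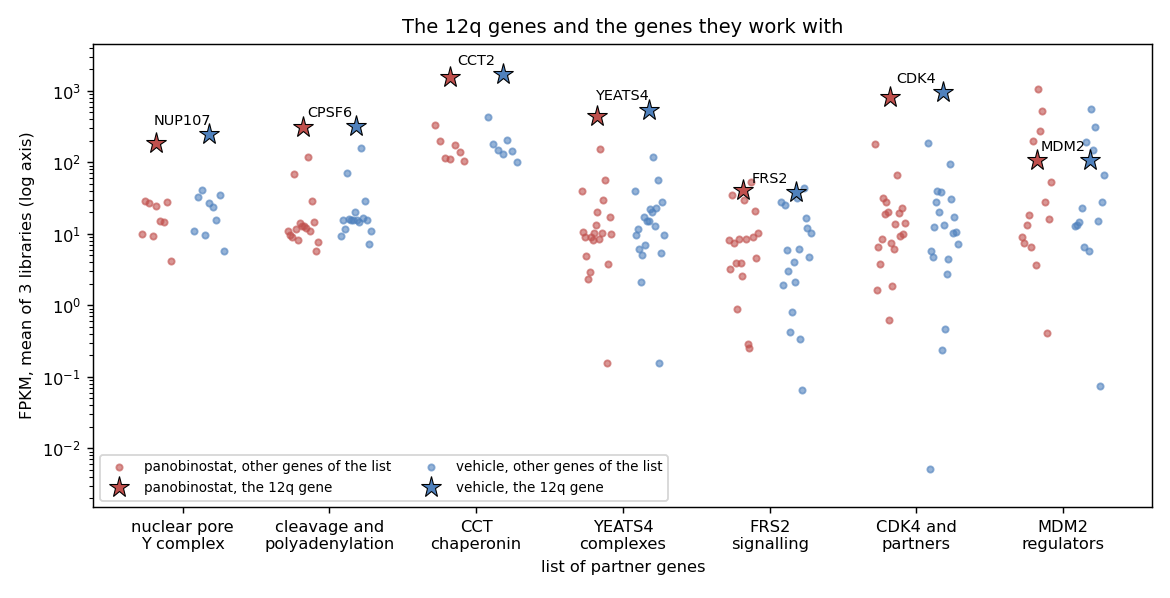
Mean FPKM (log axis, n = 3) of 7 of the 12q genes (stars) and of the other genes of the list each belongs to (dots), with panobinostat in red on the left and vehicle in blue on the right. NUP107, CPSF6, CCT2, YEATS4 and CDK4 stand above every other gene of their list in both arms, and FRS2 and MDM2 do not.

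FRS2 (ENSG00000166225, 69470349 to 69579789, plus strand), the docking protein that links FGF and neurotrophin receptors to the RAS pathway, did not pass the test. It was at 46.7, 39.8 and 35.2 FPKM in panobinostat libraries A, B and C, against 40.4, 36.7 and 38.2 FPKM in vehicle libraries A, B and C. The arms overlapped, and the panobinostat libraries spread around the vehicle ones. The fitted log2 fold change was -0.03 ± 0.09 (edgeR, adjusted p = 0.759). Its sign turned with library size alone (0.08), upper quartile scaling (0.11) and without panobinostat C (0.06).

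The receptors that use FRS2 changed in both directions. Of 19 genes of the list, FRS2 included, 9 rose, 3 fell and 7 did not pass (median 0.15). With DESeq2, another test on counts, 7 rose, and 6 to 9 rose with 1 library left out. Under library size alone 10 rose, and under upper quartile scaling 11 rose. FGFR4 rose by 3.29 ± 0.12 on the log2 scale to 8.51 ± 0.267 FPKM with panobinostat, against 0.814 ± 0.133 with vehicle. ALK fell by 1.88 ± 0.07 to 8.10 ± 0.191 FPKM with panobinostat, against 27.5 ± 0.910 with vehicle. RET fell by 0.99 ± 0.08 to 8.97 ± 0.791 FPKM with panobinostat, against 16.5 ± 0.902 with vehicle. NTRK3 rose by 1.85 ± 0.21 but stayed under 1 FPKM in both arms. PTPN11 (SHP2), a phosphatase that docks on FRS2, was the highest of the list at 52.6 ± 1.00 FPKM with panobinostat and 43.9 ± 3.69 with vehicle and did not pass (adjusted p = 0.112). FRS2 came second in both arms.

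SLC35E3 (ENSG00000175782, 68746106 to 68793964, plus strand), a member of a family of nucleotide-sugar transporters whose own cargo is not established, was the 1 gene of the 10 that rose. It was at 30.4, 28.7 and 26.9 FPKM in panobinostat libraries A, B and C, against 21.1, 20.0 and 20.1 FPKM in vehicle libraries A, B and C. The arms did not overlap. Its log2 fold change was 0.38 ± 0.07 (edgeR, adjusted p = 0.000275). Its relatives did otherwise: of the other 4 SLC35E genes 3 fell and SLC35E4 did not pass (median of the 5 genes -0.53). SLC35E1 fell by 0.53 ± 0.08 to 5.17 ± 0.375 FPKM with panobinostat, against 6.92 ± 0.0830 with vehicle. SLC35E2A and SLC35E2B fell by 0.86 ± 0.15 and 0.73 ± 0.09, and these near-identical copies could share reads.

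CPM (ENSG00000135678, 68842197 to 68971570, minus strand), a membrane carboxypeptidase that trims peptides outside the cell, had, after LYZ, the largest fall of the 10 genes by log2 fold change. It was at 1.67, 1.46 and 1.37 FPKM in panobinostat libraries A, B and C, against 3.20, 2.86 and 3.10 FPKM in vehicle libraries A, B and C. The arms did not overlap. In log2 the change was -1.14 ± 0.11 (edgeR, adjusted p = 3.13e-07), which is 45.4% of the level with vehicle. Of the 5 genes of its enzyme family with a row, CPM included, 2 fell, 0 rose and 3 did not pass (median -0.17), but 1 rose under library size alone and under upper quartile scaling. CPXM1 fell by 1.27 ± 0.09 to 14.5 ± 1.15 FPKM with panobinostat, against 32.5 ± 3.18 with vehicle. CPE, which processes neuropeptides, was the highest at 96.0 ± 9.80 FPKM with panobinostat and 90.1 ± 8.08 with vehicle and did not pass (adjusted p = 0.858). CPM was the lowest of the 5 in both arms.

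LYZ (ENSG00000090382, 69348341 to 69354234, plus strand) fell, from very few reads. It had 8, 3 and 10 counts in panobinostat libraries A, B and C, against 27, 18 and 27 counts in vehicle libraries A, B and C. In FPKM this was 0.338, 0.105 and 0.312 with panobinostat, against 1.07, 0.570 and 0.846 with vehicle. The arms did not overlap, and panobinostat B stood at the floor of 3 counts. On the log2 scale it differed by -1.81 ± 0.40 (edgeR, adjusted p = 0.00106), and it ranged from -2.04 to -1.43 with 1 library left out. Of 12 other myeloid markers 3 had a row, PTPRC, CSF1R and FCER1G, and they summed to 0.196 to 0.515 FPKM per panobinostat library and 0.0167 to 0.232 FPKM per vehicle library. None of the 3 reached 1 FPKM in either arm. PTPRC and CSF1R were called higher with panobinostat (edgeR adjusted p = 0.000683 and 0.000211), while LYZ was lower, and FCER1G was not tested. Over the 3 libraries of an arm PTPRC had 45 counts with panobinostat and 5 with vehicle. CSF1R had 35 and 2, and both are too few for a fold change. The part of these 3 markers in the change of LYZ was not tested.

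The rows next to the members changed in both directions too. Of the 26 tested rows around CDK4 6 rose, 10 fell and 10 did not pass. Over all genes tested 33.7% rose and 31.5% fell, so change in both directions is also the background and is no result about the neighbours. AGAP2 rose by 2.56 ± 0.08 on the log2 scale, and MARCH9, a membrane ubiquitin ligase that borders CDK4 on the side away from AGAP2, rose by 1.30 ± 0.08 to 53.7 ± 2.81 FPKM with panobinostat, against 20.2 ± 1.57 with vehicle. DDIT3 (CHOP), a transcription factor of the stress response, rose by 0.71 ± 0.13. TSPAN31 rose by 0.36 ± 0.09. METTL1, a transfer RNA methyltransferase, fell by 0.98 ± 0.09, DTX3 by 0.92 ± 0.08, EEF1AKMT3 by 0.69 ± 0.07 and TSFM by 0.50 ± 0.08. DCTN2, OS9, CTDSP2 and ATP23 did not pass, with log2 fold changes between -0.01 and 0.15.

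Of the 27 tested rows in and around the stretch from NUP107 to CCT2, members left out, 10 rose, 4 fell and 13 did not pass. The shares over all genes tested are again 33.7% higher and 31.5% lower. RAB3IP, next to CCT2, rose by 2.11 ± 0.11 on the log2 scale, and CNOT2 fell by 0.41 ± 0.07. CAND1, DYRK2 and RAP1B did not pass. The 4 tested rows inside the stretch, pseudogenes and noncoding RNAs with 49 to 418 counts over the panobinostat libraries and 36 to 352 over the vehicle libraries, did not pass.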

How the data were processed

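RNA sequencing covered 6 libraries with the label HT1197, 3 per arm. The authors made the deposited counts per gene by strand (option 2), using featureCounts 1.5.0-p3, against Ensembl release 84 genes with the largest overlap, per the file headers. Its command names 9 alignments, and 6 of them are columns of the table used. The submitters' processing notes name featureCounts 1.5.1, Novoalign 2.8, Subread and the build hg38. The deposited FPKM values were made by the authors. Of 53265 FPKM values with 100 counts or more, each lay within 1% of count over gene length and column total, so they are the counts in another unit.

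Coordinates and symbols came from GENCODE release 29 (GRCh38), which held 22459 of 22718 identifiers. Counts were fitted with edgeR 4.0.16 in R 4.3.3 (filterByExpr, minimum count 10 and total 15; TMM; quasi-likelihood test, panobinostat over vehicle, 6 libraries). An adjusted p (Benjamini-Hochberg over 16084 genes) of 0.05 or less was a call. The SE is the log2 fold change over the square root of F. The steps were tested on simulated data. Floors of 3 counts cover counting error only. Within arms libraries correlated at a Spearman rho of 0.977 to 0.986, and between arms at 0.934 to 0.943.

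The members and gene lists were chosen with earlier results of these data known. Named besides the members were up to 4 called genes per list, by size of change, if they averaged at least 1 CPM, the highest of each list, neighbours on chromosome 12 within 15 rows at 10 FPKM or more, and 3 genes most like CDK4 and MDM2. Other genes named, such as CDK6, CCND1, CCNE1, CCNE2, E2F1, E2F2, E2F3, RB1, CDKN1A, CDKN1B, CDKN2C, PTPRC, CSF1R, MDM4, NUDT21, NUP37, KAT5, RUVBL1 and MORF4L2, were chosen after their values were seen. CPM as a unit (TMM-scaled counts relative to the library total) is distinct from the gene CPM. Alternatives were DESeq2 1.42.0, 3 scalings, 2 filters, the letter as a block, each library left out, an adjusted p of 0.01, and limma 3.58.1 on log2(FPKM + 1), filtered at a mean of 1 FPKM or not, and log2(FPKM + 0.1). A gene of the MDM2 list, and a further list that depends on it, are not reported here.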

Additional observations from a re-analysis of the deposited data

How the results depend on the processing

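The number of genes changed ran from 7808 to 11788 over the alternatives, against 10482, and from 9568 to 10668 with 1 library left out. Genes that rose made up 51.7% of those changed, but 61.0% with library size alone, 63.2% with upper quartile scaling and 64.7% with limma on unfiltered FPKM. NUP107, SLC35E3, CPM and YEATS4 kept direction and call in every alternative run. LYZ did so where it was tested, which the filters at a mean of 1 CPM and 1 FPKM did not allow. CDK4 had a log2 fold change of -0.20 under upper quartile scaling, at an adjusted p of 0.0531. Limma on FPKM gave it -0.24, at an adjusted p of 0.0867 and 0.0874 filtered and 0.228 unfiltered.

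For MDM2 it was 0.019 with upper quartile scaling and -0.18 to -0.076 with 1 library left out. For CPSF6 it was 0.0027 and -0.18 to -0.098 under the same choices. For FRS2 it was 0.080 with library size alone, 0.11 with upper quartile scaling, 0.069 with limma on log2(FPKM + 1) filtered or not, 0.071 with limma on log2(FPKM + 0.1), and -0.14 to 0.055 with 1 library left out. For CCT2 it was -0.12 with library size alone, -0.094 with upper quartile scaling, -0.20 with a filter at 1 CPM (adjusted p = 0.0519), -0.12 with limma and -0.30 to -0.17 with 1 library left out. Members that fell numbered 6, but 3 with filtered limma and 5 to 7 with 1 library left out. They numbered 4 with upper quartile scaling, with the filter at 1 CPM and with unfiltered limma, and 5 with library size alone. The cause was not tested.

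With the letter as a replicate block 10541 genes changed, and no member's call did. Deviations of libraries with the same letter correlated at 0.0815 (A), -0.0213 (B) and 0.104 (C). A and C correlated best with their own letter, and B did not. The labels do not say whether the letters pair the libraries, and values this low cannot settle it. Depth limits LYZ most, at 21 counts with panobinostat and 72 with vehicle. Ranks by CPM, which ignores gene length, moved 16 of 20 ranks, with CCT2 at 3 with panobinostat and 2 with vehicle and CDK4 at 9 and 7. Among counts of the gene lists 22 moved by over 1.5 times and 368 did not, and of 52 counts of neighbours 0 did.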

Other observations

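Levels along chromosome 12 were also summed up in 40 windows of 20 protein-coding rows. The window that holds CDK4 had a median of 18.8 FPKM with panobinostat and 20.8 FPKM with vehicle. The window that holds the other 9 genes had a median of 11.7 FPKM with panobinostat and 10.7 FPKM with vehicle, with 6 rows at 100 FPKM or more in the vehicle mean. A window near the end of the long arm, with CDK2AP1 as its top gene, was higher than both, at 42.6 FPKM with panobinostat and 37.5 FPKM with vehicle. That window held 7 rows at 100 FPKM or more in the vehicle mean. The window with ANAPC5 on top also exceeded that of the 9 genes, at 14.22 FPKM with panobinostat and 11.97 FPKM with vehicle. So did the window of MYL6 with panobinostat only (12.31 FPKM) and the window of RPLP0 with vehicle only (14.14 FPKM). Of all protein-coding rows on the chromosome 39 of 788 (4.95%) reached 100 FPKM with vehicle, against 343 of 14559 (2.36%) over all chromosomes. The 10 genes are among these rows and were picked for their level, so the shares are a description.

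The genes whose log2 CPM over the 6 libraries was most like that of CDK4, among 9930 genes at a mean of 10 CPM or more, were BAD, COG4 and MAIP1, with Pearson's r of 0.998, 0.996 and 0.996. For MDM2 they were WDR36, HMBOX1 and ALMS1, with r of 0.986, 0.983 and 0.982. At an r of 0.95 or more 305 genes matched CDK4 and 30 matched MDM2. The 6 points share libraries, depth and the difference between arms, so these values describe the libraries only. BAD, a pro-death relative of BCL2, was at 19.4 CPM with panobinostat and 25.9 CPM with vehicle.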
